A study of Mus musculus with 10 samples.

Results

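The genes described here are 10 members of the dual-specificity phosphatase family, Dusp1, Dusp2, Dusp4, Dusp5, Dusp6, Dusp7, Dusp8, Dusp10, Dusp14 and Dusp16. They were chosen by name from the family members that act on MAP kinases, with Dusp14 as a small relative. The choice was made with earlier results of these data known, and the 10 are part of the 55573 genes measured. Dusp9, which also encodes a phosphatase of ERK, was left out and is given with the pathway lists below. RNA was sequenced from bone marrow-derived macrophages (BMDMs), which are macrophages grown in M-CSF from bone marrow, here of female wild-type C57BL/6 mice. All groups were harvested after 4 hours. The groups were a vehicle control, 5 µg of polyU, PNPi given with dG and rG (PNPi+dG/rG), both together (PNPi+dG/rG+polyU, called the combination here), and R848 at 1 ng/mL. PolyU is a single-stranded RNA of uridines, which was delivered with the transfection lipid DOTAP. PNPi is ulodesine, an inhibitor of purine nucleoside phosphorylase (PNP), the enzyme that breaks down guanosine (rG) and deoxyguanosine (dG). It was used at 1 µM, and each nucleoside was added at 5 µM. R848 is a synthetic imidazoquinoline that activates TLR7, an endosomal receptor that normally senses single-stranded RNA together with guanosine. Each group had 2 libraries, called biological replicates in the labels. Whether these came from separate mice or cultures is not given in the sources used here, so p-values measure the spread between these libraries, which may be technical. The labels name DOTAP only with polyU. Whether vehicle, PNPi+dG/rG or R848 contained DOTAP is likewise not given in the sources used here.

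Dual-specificity phosphatases remove phosphate from both the threonine and the tyrosine of the activation loop of MAP kinases and thereby switch these kinases off. Toll-like receptors in macrophages activate the ERK, JNK and p38 branches of MAP kinase signaling, and several of these phosphatases are themselves transcribed in response, which makes them feedback brakes. DUSP1, DUSP2, DUSP4 and DUSP5 are nuclear, DUSP6 and DUSP7 are cytoplasmic and prefer ERK, and DUSP8, DUSP10 and DUSP16 act mainly on JNK and p38. DUSP14 is a small atypical member without the MAP kinase-binding domain.

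The libraries held between 14128123 and 38392613 reads on genes, and 3 reads, taken as the limit of detection, were worth between 0.0781 and 0.212 CPM, which is reads scaled to a common total per library. PNPi+dG/rG had the deepest libraries and the combination the shallowest. All 7 macrophage markers examined (Adgre1, Cd68, Csf1r, Lyz2, Itgam, Fcgr1 and Mertk) were above 1 CPM in all 10 libraries. Their summed level was between 16835 and 17291 CPM with vehicle, between 14072 and 14150 CPM with the combination and between 12957 and 13215 CPM with R848. Lyz2 made up most of this sum, with 10805 to 11067 CPM with vehicle. Lyz2, Cd68, Csf1r and Mertk were lower in both treated groups. Adgre1 was higher in both, with 2441 to 2462 CPM with the combination and 2047 to 2093 with R848, against 1547 to 1629 with vehicle. Fcgr1 was higher with the combination and lower with R848, and Itgam the reverse. The 4 fibroblast markers examined (Col1a1, Col1a2, Pdgfra and Pdgfrb) summed to between 0.393 and 0.899 CPM with vehicle, between 3.82 and 4.85 CPM with the combination and between 131 and 139 CPM with R848. The rise with the combination was mostly Pdgfrb, with 3.19 to 4.29 CPM against 0.112 to 0.169 with vehicle. Col1a1 and Col1a2 overlapped vehicle there, and Pdgfra had at most 0.283 CPM. With R848 all 4 were higher than with vehicle. The 5 neutrophil markers, with Ly6g at 0 reads in all libraries, summed to between 2.92 and 3.48 CPM with vehicle, between 7.39 and 7.57 CPM with the combination and between 21.1 and 23.4 CPM with R848. Within that list S100a8 was higher with R848 (21.0 to 23.4 CPM, against 1.57 to 2.02 with vehicle), whereas S100a9 was lower (at most 0.0532 CPM, against 1.18 to 1.46), and Mpo and Elane were at 0 reads with R848. The 4 endothelial markers, mostly Kdr and Vwf, summed to between 239.6 and 246 CPM with vehicle, between 143.0 and 143.4 CPM with the combination and between 64.5 and 69.8 CPM with R848. The part of other cells in the values of R848 and of the combination below was not tested. In such bulk RNA, fewer cells of a type and less RNA per cell cannot be told apart. Of the 4 T cell markers, Cd3e and Cd3d were at 0 in every library, Cd2 was at most 0.114 CPM, and Trac had between 1.31 and 5.95 CPM. All markers of the B cell, dendritic cell and mast cell lists were under 1 CPM.

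The stretches of DNA before the start sites of the 5 members with the largest changes against vehicle in the combination are shown first, because 3 of these genes rose together and 2 fell together in the results that follow. They come from the RefSeq promoters of GRCm38.p6 and are written 5′ to 3′ on the strand of the gene. Capitals mark matches, on either strand, to the CRE motif TGACGTCA or to a loose κB motif, GGG and CC with any 5 bases between them.
Dusp1, chr17:26508520-26508722, minus strand: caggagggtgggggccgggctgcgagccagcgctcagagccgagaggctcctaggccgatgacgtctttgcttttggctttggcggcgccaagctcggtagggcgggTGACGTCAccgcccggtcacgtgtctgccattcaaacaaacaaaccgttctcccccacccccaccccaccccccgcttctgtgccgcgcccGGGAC
Dusp2, chr2:127335909-127336158, plus strand: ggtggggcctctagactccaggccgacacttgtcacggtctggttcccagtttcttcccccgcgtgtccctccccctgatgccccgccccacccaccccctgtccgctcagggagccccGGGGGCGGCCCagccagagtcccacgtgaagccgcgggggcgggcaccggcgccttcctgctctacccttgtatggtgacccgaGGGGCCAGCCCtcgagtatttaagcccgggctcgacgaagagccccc
Dusp16, chr6:134792629-134792878, minus strand: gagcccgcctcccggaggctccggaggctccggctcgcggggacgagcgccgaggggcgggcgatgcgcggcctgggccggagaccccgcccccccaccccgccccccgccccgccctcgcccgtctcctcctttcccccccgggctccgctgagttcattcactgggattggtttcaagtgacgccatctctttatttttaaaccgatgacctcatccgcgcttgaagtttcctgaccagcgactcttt
Dusp6, chr10:99262981-99263230, plus strand: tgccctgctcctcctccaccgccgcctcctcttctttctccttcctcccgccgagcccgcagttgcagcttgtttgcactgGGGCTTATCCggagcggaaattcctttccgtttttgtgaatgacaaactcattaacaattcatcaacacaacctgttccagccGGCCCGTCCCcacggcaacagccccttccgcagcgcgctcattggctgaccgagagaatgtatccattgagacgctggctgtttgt
Dusp7, chr9:106368382-106368631, plus strand: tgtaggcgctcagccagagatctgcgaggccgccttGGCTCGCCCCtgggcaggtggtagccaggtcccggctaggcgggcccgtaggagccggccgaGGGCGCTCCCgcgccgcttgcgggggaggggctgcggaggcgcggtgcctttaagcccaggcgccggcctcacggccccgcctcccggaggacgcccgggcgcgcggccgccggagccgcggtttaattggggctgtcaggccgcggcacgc
The stretch of Dusp1 was cut at 203 bases, where annotated exons begin, and the capitals at its end open a κB match that runs on into the exon. The RefSeq start used for Dusp1 lies inside the annotated span of the gene given below, which begins further upstream.

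In the 250 bases before the start, TGACGTCA stood in 1.55% of the 32851 promoters of the same length and in 2 of the 9 members with an entry (all but Dusp4), Dusp1 and Dusp8. In Dusp1 it began 143 bases before the start. For Dusp8, bases just after the start used here were not found in an annotated transcript of the gene. The κB motif stood in 45.8% of all promoters and was matched in 7 of the 9 members, with Dusp8 and Dusp16 as the exceptions. Its fixed letters are all G or C, and the windows of the members held from 56.4% (Dusp6) to 77.2% (Dusp7) G or C. The part of base composition in these matches was not tested. Annotated exons covered all 250 bases of the Dusp5 window, 171 of Dusp10 and 100 of Dusp14, and matches in exons were counted. The windows of Dusp8, Dusp10 and Dusp14, like that of Dusp1, lie inside the annotated gene spans given below, which begin further upstream. The AP-1 motif TGANTCA (N is any base), in 6.75% of all promoters, and an ISRE motif, GAAA and GAAA with any 2 bases between them, in 2.98%, were matched in 0 of the 9. The stretch of Dusp16, a gene called higher with both the combination and R848, therefore carries no capitals. A match is a string of letters in a window and no evidence of a bound factor.

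Of the 10 genes, 9 reached 1 CPM in at least 2 libraries and were tested with limma among 11978 genes. Called means past an adjusted p of 0.05 and at least 2-fold apart. With the combination, 7 of the 9 were called against vehicle, 3 higher and 4 lower, where 22.4% of all genes tested were called (8.12% higher and 14.3% lower). With R848, 7 of the 9 were called as well, again 3 higher and 4 lower, against 39.2% of all genes (8.89% higher and 30.3% lower). The genes called higher were Dusp1, Dusp2 and Dusp16 in both comparisons, which share the vehicle libraries. The genes called lower were Dusp4, Dusp5, Dusp6 and Dusp7 with the combination, and Dusp4, Dusp6, Dusp7 and Dusp10 with R848. PolyU alone changed 1 member, Dusp2, against 3.99% of all genes (3.21% higher and 0.776% lower). PNPi+dG/rG alone changed 0 members in limma, against 0.0751% of all genes (0.0668% higher and 0.00835% lower). At an unadjusted p under 0.05, 3 members and 8.98% of all genes passed. The median log2 change of the 9 was -0.37 with polyU, 0.04 with PNPi+dG/rG, -0.40 with the combination and -0.11 with R848. The medians of all genes tested were 0.02, 0.02, -0.22 and -0.50, so that a change of 0 in CPM with R848 lies above the median gene. With each library centred on its median gene, R848 raised 3 members and lowered 2, in place of 3 and 4, and 15% of all genes were higher and 17.6% lower. With the combination centring left 3 members higher and 4 lower, against 9.95% and 10.4% of all genes.

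**Figure D1:**
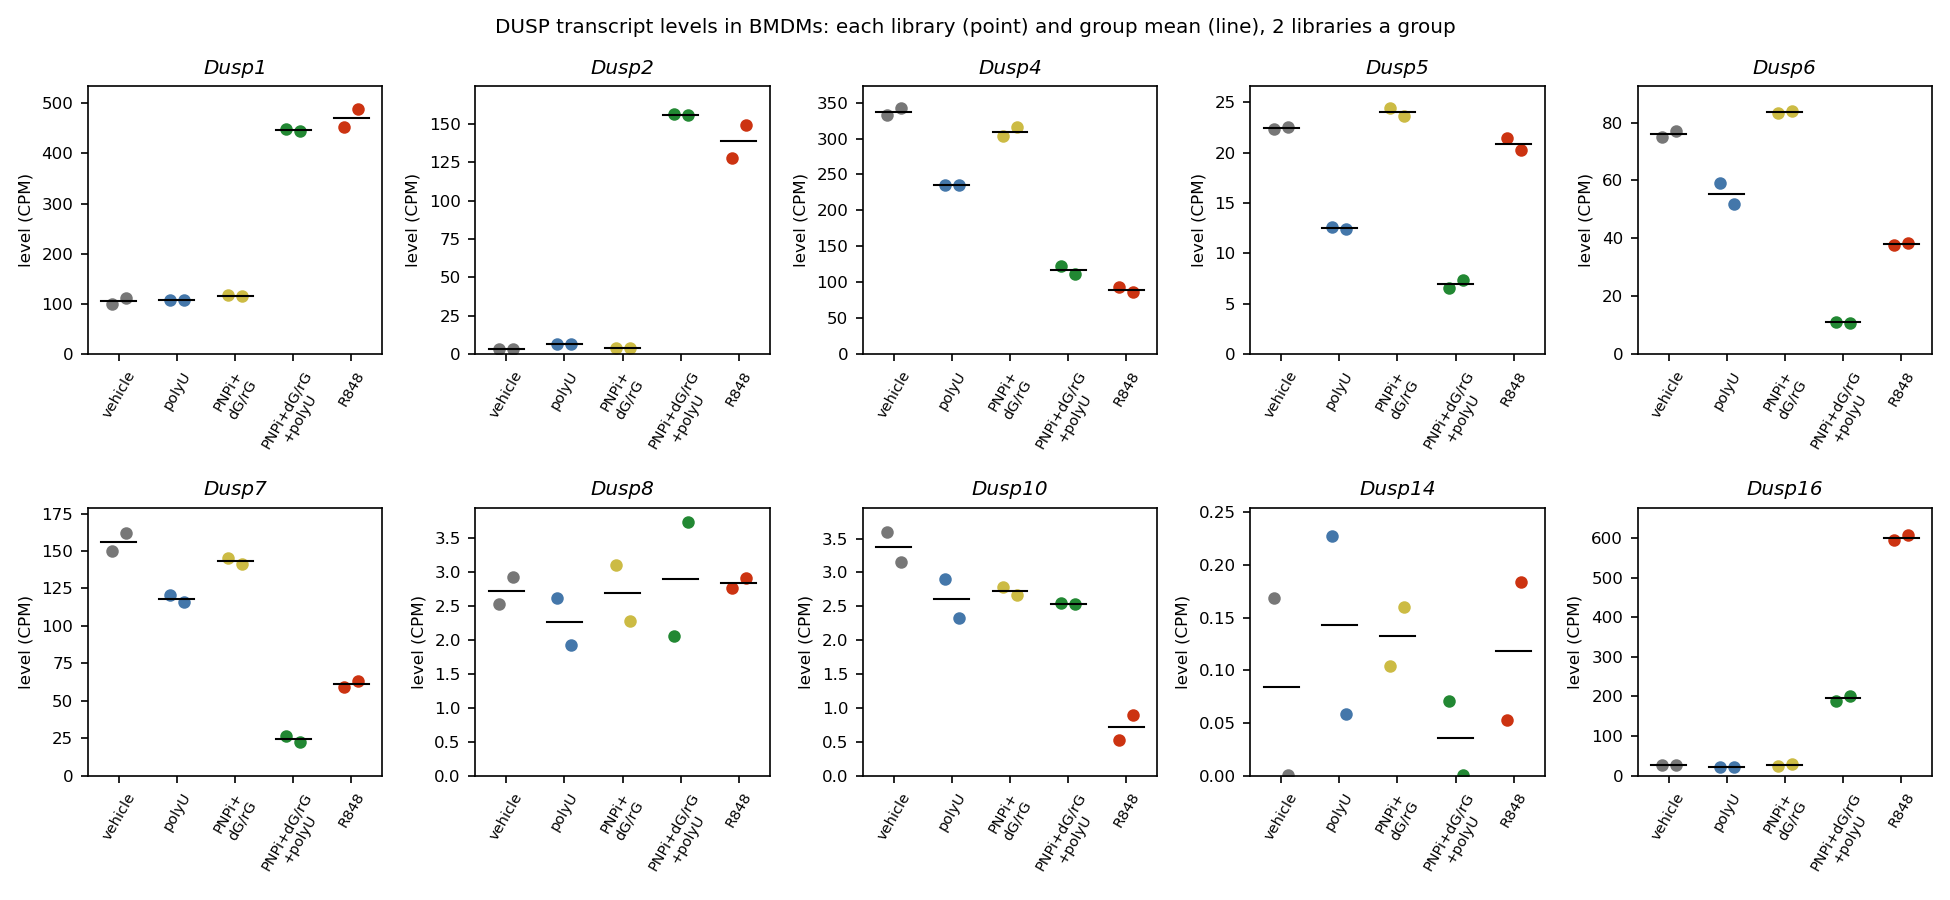
Level in CPM (y axis, linear, from 0) of each of the 10 genes in the 10 libraries, with 1 panel per gene and groups along the x axis; points are libraries and lines are means of 2. Dusp1, Dusp2 and Dusp16 stand high with the combination and R848, Dusp4, Dusp6 and Dusp7 stand low there, and Dusp14 stays at or under 0.227 CPM.

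Dusp1 (ENSMUSG00000024190, GRCm38 chromosome 17, 26505590 to 26562128, minus strand) encodes a nuclear phosphatase that prefers p38 and JNK and limits cytokine output after Toll-like receptor signaling. The 2 libraries of each group had 100.3 and 111 CPM with vehicle, 108 and 108 after polyU, 117 and 116 with PNPi+dG/rG, 448 and 445 with the combination, and 452 and 488 with R848. The first 3 groups lay together between 100.3 and 117 CPM, and both libraries of the last 2 groups lay far above them. Against vehicle, at 106 ± 7.56 CPM (SD, n = 2), it was 4.23-fold higher with the combination (log2 change 2.08, SE, the standard error, 0.0524, limma adjusted p = 1.11e-14). With R848 it was 4.45-fold higher (log2 change 2.15, limma adjusted p = 3.14e-15). In the order of its 5 levels the step from PNPi+dG/rG to the combination was the one that passed the test, while the difference between the combination and R848 did not (log2 -0.07, 95% interval -0.18 to 0.04, limma adjusted p = 0.225). Centred libraries put that difference at -0.46 (limma adjusted p = 8.62e-07). Dusp1 shares 11 exon bases with Ergic1 on the opposite strand, and the counting strand is not given in the sources used here. Ergic1 itself had a mean of 192 CPM with vehicle, 125 with the combination and 109 with R848.

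Dusp2 (ENSMUSG00000027368, chromosome 2, 127336159 to 127338376, plus strand) encodes a nuclear phosphatase of hematopoietic cells that is induced on activation. It had 3.37 and 3.09 CPM with vehicle, 6.59 and 6.68 after polyU, 3.96 and 4.09 with PNPi+dG/rG, 156 and 155 with the combination, and 128 and 149 with R848. No 2 groups overlapped. It had the largest log2 change against vehicle among the 9 tested members, 5.59 with the combination (48.3-fold, SE 0.0964, limma adjusted p = 2.19e-16) and 5.42 with R848 (42.8-fold, limma adjusted p = 9.79e-17). With polyU alone it was 2.06-fold higher (log2 change 1.04, limma adjusted p = 5.12e-07), close to the 2-fold limit. That change was 0.98 without vehicle replicate 2, 0.85 with a pseudocount of 1 and 1.00 with centred libraries, and it was not called under these 3 settings. The combination and R848 did not differ past the threshold (log2 0.17, 95% interval -0.03 to 0.38, limma adjusted p = 0.12), and centring turned the sign of this difference, to -0.21.

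Dusp16 (ENSMUSG00000030203, chromosome 6, 134715468 to 134792625, minus strand) encodes a phosphatase that prefers JNK. It had 25.6 and 25.6 CPM with vehicle, 22.4 and 21.9 after polyU, 24.8 and 28.0 with PNPi+dG/rG, 189 and 202 with the combination, and 595 and 607 with R848. Both libraries with the combination stood well above the first 3 groups, and both with R848 well above those. The change against vehicle was 7.62-fold with the combination (log2 change 2.93, SE 0.0627, limma adjusted p = 1.73e-15) and 23.4-fold with R848 (log2 change 4.55, limma adjusted p = 7.36e-18). In contrast to Dusp1 and Dusp2, R848 and the combination differed, with Dusp16 lower by 1.62 on the log2 scale with the combination (limma adjusted p = 4.88e-12). PolyU alone gave a change of -0.21 (limma adjusted p = 0.0135), which is under 2-fold.

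**Figure D2:**
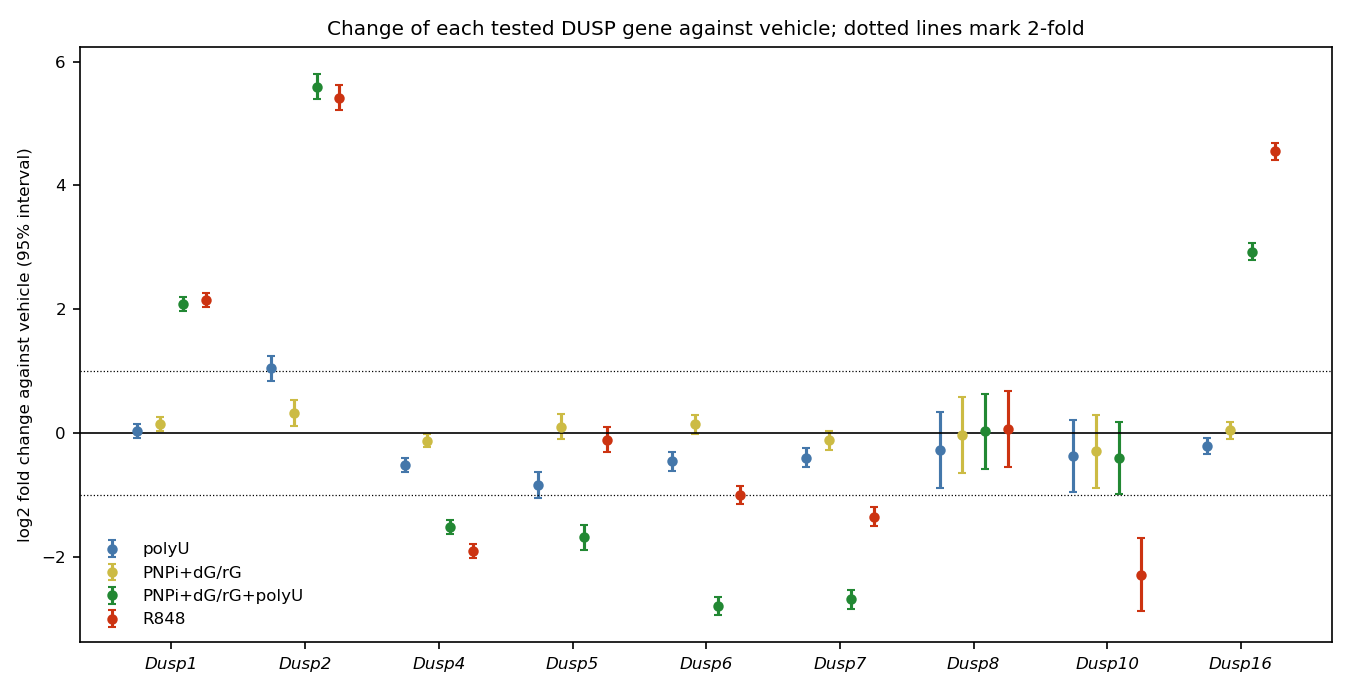
Log2 fold change against vehicle (y axis) of the 9 tested genes (x axis) with each of the 4 treatments; bars are 95% intervals from limma and dotted lines mark 2-fold. Dusp1, Dusp2 and Dusp16 lie above the upper line with the combination and R848, and the 95% intervals of Dusp8 cover 0 throughout.

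Dusp4 (ENSMUSG00000031530, chromosome 8, 34807297 to 34819894, plus strand) encodes a nuclear phosphatase of ERK, JNK and p38. It had 332 and 342 CPM with vehicle, 236 and 235 after polyU, 304 and 316 with PNPi+dG/rG, 123 and 112 with the combination, and 93.1 and 86.5 with R848. The libraries of vehicle were the highest, and no 2 groups overlapped. It fell 2.88-fold with the combination (log2 change -1.52, SE 0.0524, limma adjusted p = 4.54e-13) and 3.76-fold with R848 (log2 change -1.91, limma adjusted p = 1.36e-14). PolyU alone lowered it by less than 2-fold, with a log2 change of -0.52 (limma adjusted p = 1.35e-06). It was higher with the combination than with R848 by 0.39 on the log2 scale (limma adjusted p = 8.54e-06), a difference that centred libraries did not keep (limma adjusted p = 0.971).

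Dusp5 (ENSMUSG00000034765, chromosome 19, 53529109 to 53542431, plus strand), a nuclear phosphatase selective for ERK, fell with the combination but was not called with R848. It had 22.4 and 22.5 CPM with vehicle, 12.7 and 12.4 after polyU, 24.5 and 23.7 with PNPi+dG/rG, 6.58 and 7.39 with the combination, and 21.5 and 20.2 with R848. The level in R848 thus lay next to vehicle, whereas polyU and then the combination lay lower, each apart from the others. It fell 3.22-fold with the combination (log2 change -1.69, SE 0.0957, limma adjusted p = 2.45e-10). With R848 the change was -0.11 (95% interval -0.31 to 0.10, limma adjusted p = 0.303), and it turned to 0.49 with centred libraries (limma adjusted p = 2.63e-04). The difference between the treatments was itself tested, and Dusp5 was 2.99-fold lower with the combination than with R848 (log2 -1.58, limma adjusted p = 8.51e-10). Its exons share 547 bases with AC137853.2 on the opposite strand, which had at most 0.214 CPM in any library.

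Dusp6 and Dusp7 encode the cytoplasmic phosphatases that prefer ERK, and DUSP6 is a classical product of ERK signaling itself. Dusp6 (ENSMUSG00000019960, chromosome 10, 99263231 to 99267489, plus strand) had 75.0 and 77.3 CPM with vehicle, 59.2 and 51.8 after polyU, 83.5 and 83.9 with PNPi+dG/rG, 11.2 and 10.7 with the combination, and 37.7 and 38.2 with R848. Dusp7 (ENSMUSG00000053716, chromosome 9, 106368632 to 106375724, plus strand) had 150.1 and 162 CPM with vehicle, 121 and 116 after polyU, 145 and 141 with PNPi+dG/rG, 26.3 and 22.3 with the combination, and 58.9 and 63.3 with R848. In both genes the libraries of the combination were the lowest, those of R848 the next and those of polyU the third, with no overlap. Dusp6 fell 6.96-fold with the combination (log2 change -2.80, SE 0.0703, limma adjusted p = 1.07e-14). With R848 it fell 2.00-fold (log2 change -1.003, limma adjusted p = 1.85e-09), at the very edge of the 2-fold limit. It missed that limit with a pseudocount of 1 (-0.98), with centred libraries (-0.41), without vehicle replicate 2 (-0.98) and without R848 replicate 1 (-0.99). Dusp7 fell 6.45-fold with the combination (log2 change -2.69, SE 0.0718, limma adjusted p = 2.62e-14). With R848 its log2 change was -1.35 (limma adjusted p = 6.37e-11), or -0.76 with centred libraries, which is under 2-fold. Both were lower with the combination than with R848, Dusp6 by 3.47-fold (log2 -1.80, limma adjusted p = 5.60e-12) and Dusp7 by a log2 difference of -1.34 (limma adjusted p = 2.39e-10).

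Dusp10 (ENSMUSG00000039384, chromosome 1, 184013302 to 184075636, plus strand), which encodes a phosphatase of JNK and p38, was called lower with R848 and not with the other 3 treatments. It had 3.59 and 3.15 CPM with vehicle, 2.90 and 2.32 after polyU, 2.79 and 2.67 with PNPi+dG/rG, 2.55 and 2.53 with the combination, and 0.531 and 0.888 with R848. The R848 values rest on 10 and 29 reads. Its log2 change was -2.29 with R848 (SE 0.275, limma adjusted p = 1.25e-06) and -0.40 with the combination (95% interval -0.99 to 0.18, limma adjusted p = 0.203). It was 3.70-fold higher with the combination than with R848 (log2 1.89, limma adjusted p = 1.73e-05). R848 also lay below polyU and PNPi+dG/rG, with log2 differences of -1.92 and -1.99 (limma adjusted p = 8.89e-06 and 5.97e-06). The levels with vehicle, PNPi+dG/rG, polyU and the combination, in falling order, did not differ between neighbours past the threshold.

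Dusp8 (ENSMUSG00000037887, chromosome 7, 142079490 to 142095843, minus strand), another phosphatase of JNK and p38, was not called in any comparison. It ranged from 1.92 to 3.73 CPM, which is 29 to 119 reads a library, and both the lowest and the highest library belonged to groups that overlapped vehicle. Its log2 change was 0.03 with the combination (95% interval -0.58 to 0.64) and 0.06 with R848 (95% interval -0.55 to 0.67). Changes within these bounds are therefore compatible with the data. With centred libraries the change with R848 was 0.66 (limma adjusted p = 0.0461), under 2-fold. Dusp14 (ENSMUSG00000018648, chromosome 11, 84048041 to 84069261, minus strand) had 0 to 6 reads in each library, at most 0.227 CPM, and was not tested. Its libraries had 3 and 0 reads with vehicle, 4 and 1 after polyU, 4 and 6 with PNPi+dG/rG, 1 and 0 with the combination, and 1 and 6 with R848.

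PolyU alone moved 5 further members at an adjusted p under 0.05 but under 2-fold, all downward. At that adjusted p with no limit on fold, 39.3% of all genes passed with polyU, 20.6% higher and 18.7% lower. Their log2 changes against vehicle were -0.52 for Dusp4, -0.84 for Dusp5, -0.46 for Dusp6, -0.40 for Dusp7 and -0.21 for Dusp16 (limma adjusted p from 1.35e-06 to 0.0135). In none of the 9 members did PNPi+dG/rG differ from vehicle past the threshold (limma adjusted p at least 0.208). The 95% intervals of these changes reached from -0.89 to 0.29 for Dusp10 and from 0.03 to 0.25 for Dusp1. In all 9 members 2-fold changes lay outside the interval. Between polyU and PNPi+dG/rG, Dusp2 was higher with polyU by 0.72, and Dusp4, Dusp5, Dusp6, Dusp7 and Dusp16 had differences of -0.39, -0.94, -0.60, -0.28 and -0.25 on the log2 scale (limma adjusted p from 1.68e-06 to 0.0065). All were under 2-fold, so 0 members were called. Of the 11978 genes tested, 410 were called in this comparison, 323 higher and 87 lower with polyU. Small differences were common there, and 5366 of the genes had an unadjusted limma p under 0.05, a looser limit than the adjusted p given for the members.

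Next, the study design allows the effect of PNPi+dG/rG to be compared with and without polyU. PNPi stabilizes guanosines, and the question was whether these act together with the RNA. No group had PNPi without the nucleosides or polyU without DOTAP, so the parts of these cannot be told apart. The interaction is the change with the combination minus the sum of the separate changes on the log2 scale. It passed both thresholds in 5 of the 9 members, 3 positive and 2 negative. Of all genes tested, 13.4% passed (4.55% positive and 8.87% negative), with a median interaction of -0.27. With centred libraries the members again divided 3 to 2, and 6.27% of all genes were positive and 4.73% negative. For Dusp2 the separate changes summed to 1.36 and the change with both was 5.59, an interaction of 4.23 (SE 0.136, limma adjusted p = 3.06e-12). For Dusp16 the sum was -0.17 against 2.93, an interaction of 3.10 (SE 0.0886, limma adjusted p = 1.14e-12). For Dusp1 the sum was 0.17 against 2.08, an interaction of 1.91 (SE 0.0741, limma adjusted p = 1.86e-11). Given separately, neither agent moved Dusp1 or Dusp16 past 2-fold, and polyU alone moved Dusp2 just past it. On the negative side, Dusp6 had a sum of -0.32 against -2.80, an interaction of -2.48 (SE 0.0994, limma adjusted p = 2.44e-11). Dusp7 had a sum of -0.52 against -2.69, an interaction of -2.17 (SE 0.102, limma adjusted p = 1.48e-10). At the adjusted p alone 7 of the 9 members passed, 3 positive and 4 negative, against 50.7% of all genes (11.8% positive and 38.9% negative). Dusp4 and Dusp5, the other two, had interactions under 2-fold, -0.88 (limma adjusted p = 1.11e-07) and -0.95 (limma adjusted p = 3.63e-05). Those of Dusp8 (0.34, 95% interval -0.52 to 1.20) and Dusp10 (0.27, 95% interval -0.56 to 1.10) did not pass.

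**Figure D3:**
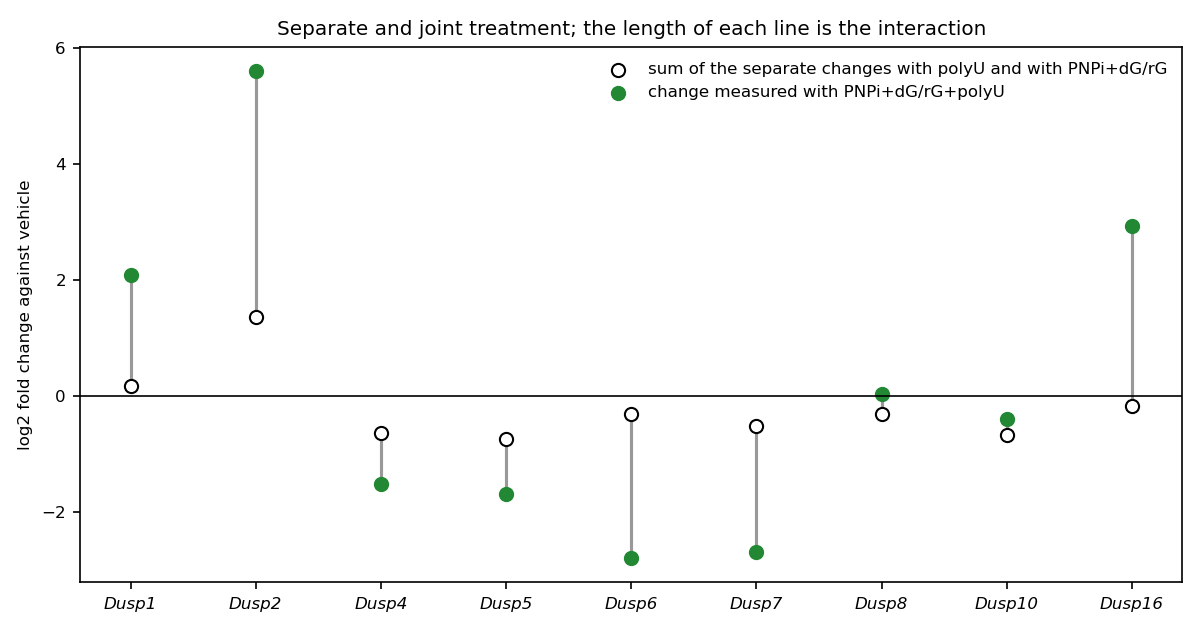
Log2 fold change against vehicle (y axis) of the 9 tested genes (x axis), with open circles for the sum of the changes with polyU and with PNPi+dG/rG given separately and filled circles for the change with the combination. Dusp2, Dusp16 and Dusp1 have filled circles far above the open ones, and Dusp6 and Dusp7 far below.

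Added to polyU, PNPi+dG/rG changed 6 of the 9 members, 3 higher and 3 lower, against 15.5% of all genes (5.29% higher and 10.2% lower, or 6.92% and 6.3% with centred libraries). Dusp1 rose by 2.05, Dusp2 by 4.55 and Dusp16 by 3.14 on the log2 scale over polyU, and Dusp6, Dusp7 and Dusp4 had changes of -2.34, -2.29 and -1.01 (limma adjusted p from 5.03e-15 to 1.57e-10). The change of Dusp4 lay at the limit and was -0.94 without combination replicate 2, -0.9999 with a pseudocount of 1 and -0.75 with centred libraries, none of them past 2-fold. R848 against polyU changed 5 of the 9, 3 higher and 2 lower, against 39.1% of all genes (7.55% higher and 31.6% lower). With centred libraries 4 members were higher and 1 lower, against 14.8% and 16.2% of all genes. The called genes were Dusp1 (2.12), Dusp2 (4.38) and Dusp16 (4.76) above polyU and Dusp4 (-1.39) and Dusp10 (-1.92) below it on the log2 scale. Dusp5 lay above polyU by 0.73, under 2-fold (limma adjusted p = 3.15e-06), and Dusp6 and Dusp7 had changes of -0.54 and -0.95, of which the first turned to 0.09 with centred libraries.

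Directly compared, the combination and R848 differed in 5 of the 9 members, 1 higher and 4 lower with the combination. Among all genes 20.7% differed, with 16.9% higher and 3.86% lower, and the median over all genes was 0.31. With centred libraries 9.97% of all genes were higher and 7.11% lower with the combination, and again 1 member was higher and 4 were lower. The 4 lower genes were Dusp5, Dusp6, Dusp7 and Dusp16 and the higher one Dusp10, with the values given above. Dusp5, Dusp6 and Dusp7 had 6.98 ± 0.569, 10.9 ± 0.347 and 24.3 ± 2.80 CPM with the combination against 20.8 ± 0.859, 38.0 ± 0.382 and 61.1 ± 3.09 CPM with R848 (SD, n = 2). The summed fibroblast markers, at most 4.85 CPM in the one group and at least 131 CPM in the other, moved with this comparison, and their part in it was not tested.

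Levels of different genes can be set side by side only per length. Length here means all annotated exons of a gene merged, whichever transcripts the cells made, and the shares below depend on it. In CPM per kb of annotated exon, the 10 genes summed to 242 with vehicle, 184 with polyU, 234 with PNPi+dG/rG, 295 with the combination and 361 with R848. Dusp4 made up 51.0% of this sum with vehicle, followed by Dusp7 with 19.3%, Dusp1 with 13.2% and Dusp6 with 10.1%. With the combination, Dusp1 made up 45.6%, Dusp2 26.3%, Dusp4 14.5% and Dusp16 8.49%. With R848, Dusp1 made up 39.3%, Dusp16 21.4%, Dusp2 19.2% and Dusp4 9.11%. Dusp1, Dusp2 and Dusp16 together went from 14.9% and 15.5% in the libraries of vehicle to 79.8% and 81.1% with the combination and 79.1% and 80.7% with R848. The same 3 genes had 20.9% and 21.3% after polyU and 17.4% and 17.2% with PNPi+dG/rG. Within this sum Dusp16 took 8.15% and 8.83% with the combination and 21.8% and 21.0% with R848, and these libraries did not overlap. These 3 genes were grouped after their values were seen, and no test was made of the shares.

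**Figure D4:**
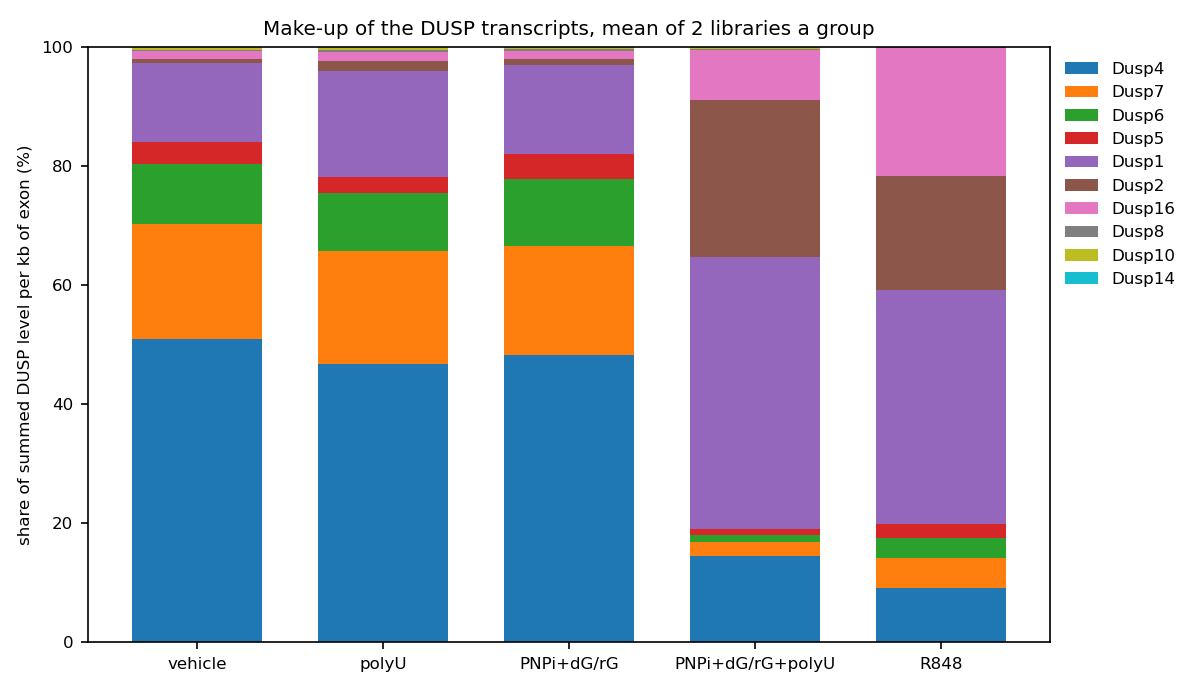
Share of the summed DUSP level per kb of exon (y axis, percent, from 0 to 100) held by each gene in the 5 groups (x axis), as the mean of 2 libraries. Dusp4 fills 51.0% of the vehicle bar, and Dusp1, Dusp2 and Dusp16 fill 80.4% of the bar of the combination and 79.9% of the R848 bar.

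The genes whose log2 levels followed each member most closely over the 10 libraries were sought among the 8452 whose mean reached 10 CPM. With 5 groups of 2 libraries, r describes the order of a few group levels, and many genes come close to 1. Dusp1 was followed most closely by Tlnrd1 (Pearson r = 0.999) and Sephs2 (r = 0.997), and Dusp2 by Denr (r = 0.999) and Fnbp1l (r = 0.998). Cemip2 (r = 0.999) was among the genes closest to Dusp16. Dusp4 was followed by Arid1b and Mical2 (both r = 0.999), Dusp5 by Emilin2 (r = 0.994) and Cpeb2 (r = 0.988), Dusp6 by Tbl2 (r = 0.992) and Itpripl1 (r = 0.991), and Dusp7 by Uck2 (r = 0.997) and Foxo3 (r = 0.994). Dusp10 was closest to Sgo1 (r = 0.989) and Fanci (r = 0.987), genes of chromosome cohesion and DNA repair. Dusp8 had no close match, with r at most 0.750 (Mindy3), followed by Zfp655 at 0.716. Within the family, Dusp1 and Dusp2 (r = 0.988) and Dusp6 and Dusp7 (r = 0.985) ran together, while Dusp2 and Dusp4 ran in opposite directions (r = -0.978).

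The rest of the pathway, together with other dual-specificity phosphatases, was looked at through 6 lists. Their counts stand beside 8.12% of all genes higher and 14.3% lower with the combination and 8.89% and 30.3% with R848. With centred libraries these shares were 9.95% and 10.4% with the combination and 15% and 17.6% with R848. Of the MAP kinases themselves, 7 of 10 were tested and 1 was called in either comparison with vehicle, Mapk11, which encodes p38β. It rose by 1.34 on the log2 scale with the combination and by 1.38 with R848 (limma adjusted p = 2.24e-07 and 8.92e-08). All 7 MAP kinase kinases were tested, and 2 fell with the combination (Map2k3 and Map2k6) and 1 with R848 (Map2k6). Map2k3, which activates p38, had changes of -1.33 and -0.69, the second under 2-fold. Among 13 MAP3 kinases and adaptors, 1 rose and 2 fell with the combination, and 2 rose and 3 fell with R848. Map3k8, the kinase TPL2 that carries Toll-like receptor signals to ERK, went from 10.8 and 9.55 CPM with vehicle to 26.5 and 28.3 after polyU, 126 and 131 with the combination, and 122 and 122 with R848. Its log2 changes were 1.43, 3.66 and 3.59 (limma adjusted p = 1.45e-09, 1.69e-15 and 8.05e-16). Map3k1 fell, with -1.89 and -1.99 under the 2 treatments (limma adjusted p = 8.67e-13 and 2.21e-13), and Tab1, a partner of TAK1, had -0.96 with the combination, under 2-fold, and -1.70 with R848 (limma adjusted p = 5.57e-10).

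Of 10 kinases activated by MAP kinases, 1 rose and 2 fell with the combination and 1 rose and 3 fell with R848. Mapkapk2, the p38 target MK2 that stabilizes cytokine mRNAs, rose from 238 and 246 CPM with vehicle to 1009 and 1040.4 with the combination and 1239.7 and 1285 with R848, by 2.08 and 2.38 on the log2 scale (limma adjusted p = 4.04e-16 and 3.29e-17). Mknk2, an ERK and p38 target that phosphorylates eIF4E, had changes of -2.11 and -3.28 (limma adjusted p = 7.82e-15 and 2.38e-17), and Rps6ka2 of -1.20 and -1.94 (limma adjusted p = 8.85e-09 and 1.48e-11). Of 15 other dual-specificity phosphatases, 11 were tested. They were listed by family, and which of them act on MAP kinases was not examined here. With the combination 0 of them rose and 4 fell, and with R848 0 rose and 8 fell, with medians of -0.68 and -1.64 beside -0.22 and -0.50 over all genes. With centred libraries 0 rose and 3 fell with the combination and 1 rose and 5 fell with R848, with medians of -0.47 and -1.04 beside -0.01 and 0.09. Dusp9, which like Dusp6 and Dusp7 encodes a cytoplasmic phosphatase of ERK, went from 16.2 and 15.3 CPM to 2.41 and 2.67 with the combination and 1.06 and 1.59 with R848 (log2 changes -2.63 and -3.60, limma adjusted p = 3.00e-09 and 3.17e-11). It was higher with the combination than with R848 by 0.96 on the log2 scale, under 2-fold (limma adjusted p = 2.26e-04). Dusp18 had changes of -1.86 and -2.02 (limma adjusted p = 1.46e-04 and 4.84e-05), and Dusp19 of -0.72, under 2-fold, and -1.92 (limma adjusted p = 1.89e-04 and 1.67e-09).

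Of 15 other brakes on the pathway, 12 were tested, and 1 rose and 4 fell with either treatment. Spry1 rose, and Rasa1, Spred2, Spred3 and Spry2 fell. Spry2, a Sprouty protein that restrains ERK activation, went from 25.6 and 27.5 CPM to 3.40 and 2.11 with the combination and 4.67 and 4.72 with R848 (log2 changes -3.31 and -2.50, limma adjusted p = 1.83e-10 and 2.75e-09). Spred2 had changes of -1.92 and -1.28 (limma adjusted p = 9.29e-12 and 7.68e-10) and Rasa1, a GTPase-activating protein of RAS, of -1.60 and -1.78 (limma adjusted p = 1.54e-12 and 1.97e-13). With centred libraries, a setting added for these lists after the data were seen, 1 of these brakes rose and 3 fell with the combination and 4 rose and 2 fell with R848. Of the MAP3 kinases and adaptors 4 rose and 2 fell with R848 in that setting, of the MAP kinases 2 rose, of the MAP kinase kinases 1 rose and 0 fell, and of the kinases activated by MAP kinases 3 rose and 2 fell. These counts stand beside 15% of all genes higher and 17.6% lower with R848 in centred libraries. With the combination, centring changed the counts of these 4 lists by 1 gene, with 1 of the activated kinases lower in place of 2. PNPi+dG/rG alone called 0 genes of the 6 lists, and polyU alone called 1, Map3k8. These counts stand beside 0.0751% of all genes called with PNPi+dG/rG and 3.99% with polyU.

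**Figure D5:**
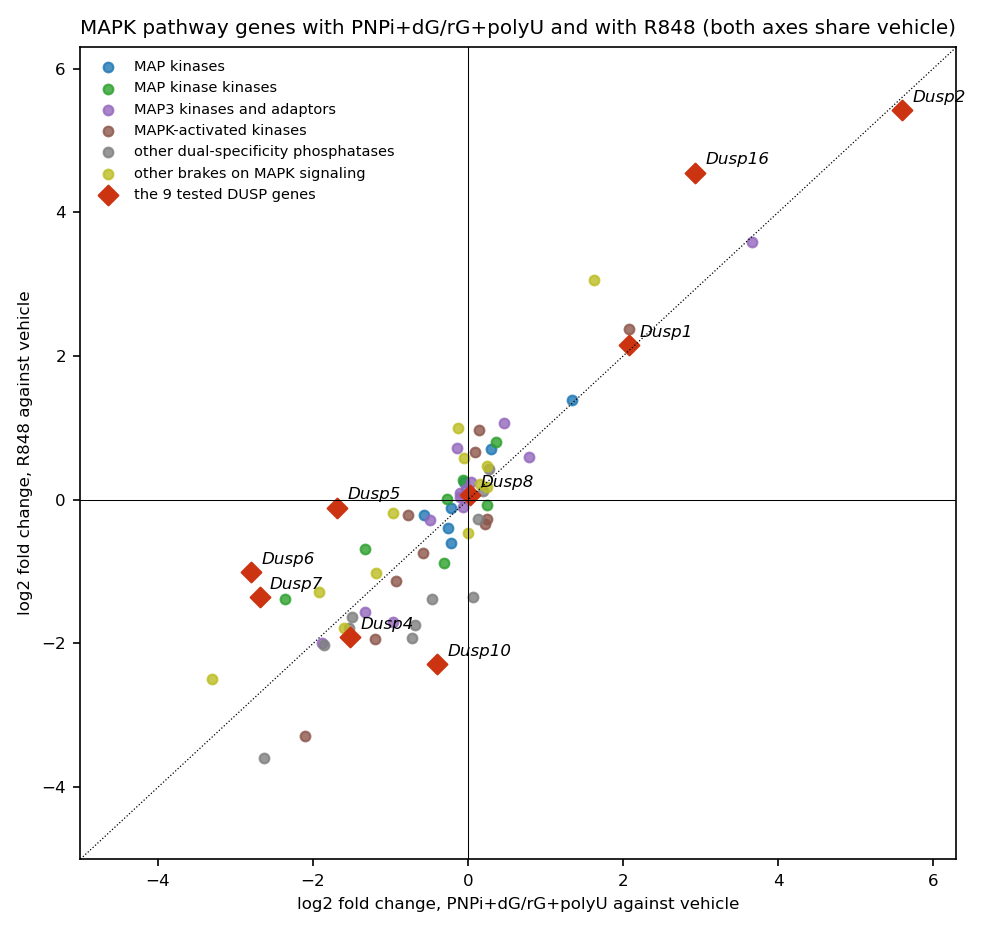
Log2 fold change against vehicle with the combination (x axis) and with R848 (y axis) for the tested genes of the 6 lists (circles, coloured by list) and the 9 tested DUSP genes (diamonds). The dotted line marks equal change. Dusp1 and Dusp2 lie next to it, Dusp16, Dusp5, Dusp6 and Dusp7 lie above it, and Dusp4 and Dusp10 lie below it. Both axes use the same vehicle libraries.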

How the data were processed

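RNA libraries were made by the authors with a stranded mRNA kit and sequenced as 50 bp single reads. The submitters' processing notes name bcl2fastq 2.19.1.403, STAR 2.27a and GRCm38, and the study's methods give gene counting with Ensembl release 97 and normalization in Partek Flow. The deposited table holds CPM, which the authors computed as reads on genes scaled to a common total per library, plus an offset of 0.0001. CPM does not correct for strongly induced genes that take a larger share of a library. Depth was worked out from the step between low values, and 100% of these were whole multiples of it within rounding.

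Groups and replicate numbers come from the sample labels. limma 3.58.1 in R 4.3.3 (statmod 1.5.0) was fitted to log2 of the deposited CPM in all 10 libraries, with trend and robust estimates, over the 11978 genes that reached 1 CPM in 2 or more libraries. P-values were adjusted by Benjamini-Hochberg over all of them within each comparison. A fold change is the difference of group means on the log2 scale of CPM plus the offset. With 2 libraries against 2, an exact permutation test cannot go below p = 0.333, so none was used. Pathway genes were named if called with both agents (the combination) or R848 and at a mean of at least 5 CPM in a group, up to 3 per list by largest change. Symbols, positions and exon lengths come from GENCODE M21 (Ensembl release 96), which matched 55394 of 55573 identifiers. The members and lists were chosen with earlier results of these data known. A marker of the macrophage list and a gene close to Dusp16 are not reported here. Alternatives changed the pseudocount, the filter, the scaling, the variance model, the groups fitted, a replicate block and the libraries left in.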

Additional observations from a re-analysis of the deposited data

Results flagged for a closer look

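In 7 of the 9 tested DUSP genes, PNPi+dG/rG changed the level by a different amount with polyU than without it, by limma's interaction test at an adjusted p under 0.05, which 50.7% of all genes tested passed. With at least 2-fold as well, 5 of the 9 passed, against 13.4% of all genes. On the log2 scale the difference was 1.91 for Dusp1, 4.23 for Dusp2 and 3.10 for Dusp16, and it was -0.88 for Dusp4, -0.95 for Dusp5, -2.48 for Dusp6 and -2.17 for Dusp7. With centred libraries it was 2.19, 4.52, 3.39, -0.59, -0.66, -2.19 and -1.88 in the same order. Groups of 2 libraries are too small to test for a library that stands apart.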

How the results depend on the processing

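Over 18 alternatives for each of 8 comparisons, the count of DUSP genes called stayed within 1.5 times its main value in 141 of 144 cases. The other 3 were in polyU against vehicle, where Dusp2 lay at the 2-fold limit and the count of 1 became 0 with a pseudocount of 1 and with centred libraries, and ranged from 0 to 1 over the left-out libraries (0 without vehicle replicate 2). Of 1296 single-gene values, 1264 kept their direction and their side of the thresholds, 12 fell short, 3 passed anew and 17 changed sign, none of them a called change. Centred libraries turned Dusp1 with polyU to -0.010, Dusp5 with R848 to 0.49, Dusp10 in the combination against polyU to 0.22, Dusp2 in the combination against R848 to -0.21 and Dusp6 in R848 against polyU to 0.094. The remaining changes of sign came from leaving out a library. Over those fits Dusp1 with polyU ranged from -0.040 to 0.11, Dusp16 with PNPi+dG/rG from -0.048 to 0.13, and Dusp10 in the combination against polyU from -0.19 to 0.13. For Dusp8 the ranges were -0.26 to 0.19 with PNPi+dG/rG, -0.40 to 0.46 with the combination, -0.044 to 0.17 with R848, -0.13 to 0.74 in the combination against polyU, -0.47 to 0.40 in the combination against R848 and -0.092 to 0.77 in the interaction. Dusp5 in R848 against polyU passed anew with centred libraries (1.37), Dusp7 in R848 against polyU without R848 replicate 2 (-1.004) and the interaction of Dusp5 without combination replicate 2 (-1.03). Dusp4 in R848 against polyU fell short with centred libraries (-0.75). The causes were not tested.

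Libraries with the same replicate number did not deviate together (median correlation -0.023 over 10 pairs of groups, from -0.286 to 0.109, across 8459 genes). With the number as a replicate block, the DUSP genes called were 1 with polyU, 0 with PNPi+dG/rG, 7 with the combination, 7 with R848 and 5 in the interaction, the same counts as without it. Over all genes, PNPi+dG/rG called 9 against vehicle, which became 0 with a pseudocount of 1, 1 with a pseudocount of 0.1, 4 with a filter on the mean or with only the groups compared, 95 without a filter, and 29, 24 and 2 without vehicle replicate 1, vehicle replicate 2 and PNPi+dG/rG replicate 2. PolyU called 478, which became 303 with a pseudocount of 1 and 849 without a filter. Dusp8, Dusp10 and Dusp14 had 0 to 119 reads a library, and the part of depth in their results was not tested.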
